A study of Mus musculus with 3 samples.

Results

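Mitosis genes encode the kinases, motors and chromosome proteins that divide a cell. A list of 37 such genes was examined in mouse bone marrow-derived macrophages treated with adiponectin, a hormone secreted by fat cells. The members were set by gene symbol, and a probe was assigned to a member when its accession maps to that symbol in a RefSeq table. All 37 genes had at least 1 probe, of 20660 genes with a symbol on the array, and 31 of them were measured, of 13181 genes measured and tested. Each array gives 2 channel readings, 6 in all, and a gene counted as measured when 3 or more of them were well above background for a probe. The other 6, Aurkb, Cdc25c, Cenpf, Kif2c, Ncapg and Ttk, had no such probe: 5 of them were well above background in 0 of the 6 readings and Kif2c in 2.

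The treated macrophages received adiponectin at 12 µg/ml for 18 h, and the untreated macrophages received none. Both came from C57BL/6J mice, were wild type and were matured in L929-conditioned medium, a source of the macrophage growth factor CSF-1. Both were moved to low serum a day before the treatment, which is a condition that limits division in culture. Each of 3 two-colour arrays held 1 treated and 1 untreated RNA sample, so that there were 3 ratios, and the labels call the arrays biological replicates without saying whether they came from separate mice. Replicate 2 was the dye swap: its treated RNA carried Cy5, and that of replicates 1 and 3 Cy3.

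Entry into mitosis is driven by the kinase CDK1 bound to cyclins A and B, and exit requires the anaphase-promoting complex, a ubiquitin ligase that marks cyclins and other proteins for destruction. Most mitosis genes are transcribed late in the cell cycle by complexes of the MuvB core with MYBL2 and FOXM1, which act at CHR elements and with the factor NF-Y at CCAAT boxes, and they are repressed in resting cells. For this reason the transcripts of the family usually rise and fall together. Macrophages grown from marrow divide in response to CSF-1 and otherwise leave the cycle. The protein Ki-67, encoded by Mki67, coats chromosomes in mitosis and is the most widely used marker of dividing cells, which makes its place among the other members the question here.

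Start sites of members that moved in opposite directions are shown as examples. They are the 200 bases before the annotated start of Mki67 and Ube2c, which were higher in treated cells, and of Cdk1 and Cdc20, which were lower. The bases are given 5′ to 3′ from RefSeq on build GRCm38.p6. Capitals mark CHR elements (TTTGAA or TTCGAA) and CCAAT boxes (CCAAT) on either strand, so that TTCAAA and ATTGG are matches read on the opposite strand. In Ube2c a CCAAT and an ATTGG overlap and form 1 run of capitals.
Mki67: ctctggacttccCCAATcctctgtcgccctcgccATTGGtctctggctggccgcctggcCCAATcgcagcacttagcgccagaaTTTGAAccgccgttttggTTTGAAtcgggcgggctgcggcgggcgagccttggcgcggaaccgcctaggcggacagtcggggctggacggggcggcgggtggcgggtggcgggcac
Ube2c: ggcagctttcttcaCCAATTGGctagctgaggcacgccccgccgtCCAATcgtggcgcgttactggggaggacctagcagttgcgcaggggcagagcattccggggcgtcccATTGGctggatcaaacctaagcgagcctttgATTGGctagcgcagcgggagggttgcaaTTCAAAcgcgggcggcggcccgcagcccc
Cdk1: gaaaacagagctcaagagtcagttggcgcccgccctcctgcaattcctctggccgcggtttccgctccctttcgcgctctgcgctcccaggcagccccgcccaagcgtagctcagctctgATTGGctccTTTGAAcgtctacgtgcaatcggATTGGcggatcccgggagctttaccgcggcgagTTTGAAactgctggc
Cdc20: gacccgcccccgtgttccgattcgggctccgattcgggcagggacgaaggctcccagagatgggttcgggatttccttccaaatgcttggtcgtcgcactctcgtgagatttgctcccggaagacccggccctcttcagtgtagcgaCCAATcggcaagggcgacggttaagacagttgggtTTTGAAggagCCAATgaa

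The Mki67 sequence lies on the minus strand at chr7:135716380-135716579, Ube2c on the plus strand at chr2:164769729-164769928, Cdk1 on the minus strand at chr10:69352913-69353112 and Cdc20 on the minus strand at chr4:118437344-118437543. Counted from the annotated start, the CHR elements of Mki67 begin at positions -116 and -98, and the single CHR element of Cdc20 at -18. Over windows of 250 bases before and 50 after the start, 27 of 33 member promoters held a CHR element (81.8%), against 19.2% of all 32851 promoters in the RefSeq table. A CCAAT box was in 28 of the 33 (84.8%), against 37.4% of all promoters, and no CHR element overlapped a CCAAT box. These promoters belong to 30 members, and sequence for the other 7 was not used here. A CHR element was found in 3 of the 6 members with a promoter that were higher in treated cells, in 14 of 17 that were lower and in 3 of 3 that did not pass. For a CCAAT box these were 4 of 6, 15 of 17 and 3 of 3. Nusap1 and Mad2l1, called higher, and Birc5, called lower, held neither, so the printed examples do not stand for all members. The letters are a description of the windows and say nothing of which factors bind.

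Mki67 rose 9.65-fold in treated cells, while the median of the other members was below 0. Its normalized log2 intensity was 12.66, 12.69 and 12.91 in treated cells on replicates 1, 2 and 3, against 9.58, 9.44 and 9.43 in untreated cells. All 3 treated samples lay more than 3 log2 units above all 3 untreated ones. The log2 ratio of treated over untreated was 3.08, 3.25 and 3.48 on the 3 arrays, with a mean of 3.27 ± 0.098 (limma's moderated standard error, n = 3 arrays) (limma adjusted p = 6.62e-08). Mki67 stood at rank 61 of the 13181 tested genes in order of rise, among the 83 genes (0.630%) that were called at 8-fold or more. A further probe for Mki67 averaged 3.25 ± 0.15 (SD, n = 3 arrays), so the rise did not rest on 1 probe.

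None of the other 30 measured members came near this value. Their median log2 ratio was -0.46, -0.43 and -0.58 on replicates 1, 2 and 3, and Mki67 exceeded that median by 3.54, 3.68 and 4.06 on the same arrays. The mean of the 3 differences was 3.76 ± 0.27 (SD, n = 3 arrays), so that the gap was larger than the spread between arrays. The highest of the other members on any array was Cenpa, at 1.28 on replicate 2, which is less than the lowest value of Mki67. On replicates 1 and 2, 22 of the other 30 members were below 0, and on replicate 3, 23 were. Mki67 therefore did not move with the other members in these arrays.

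**Figure D1:**
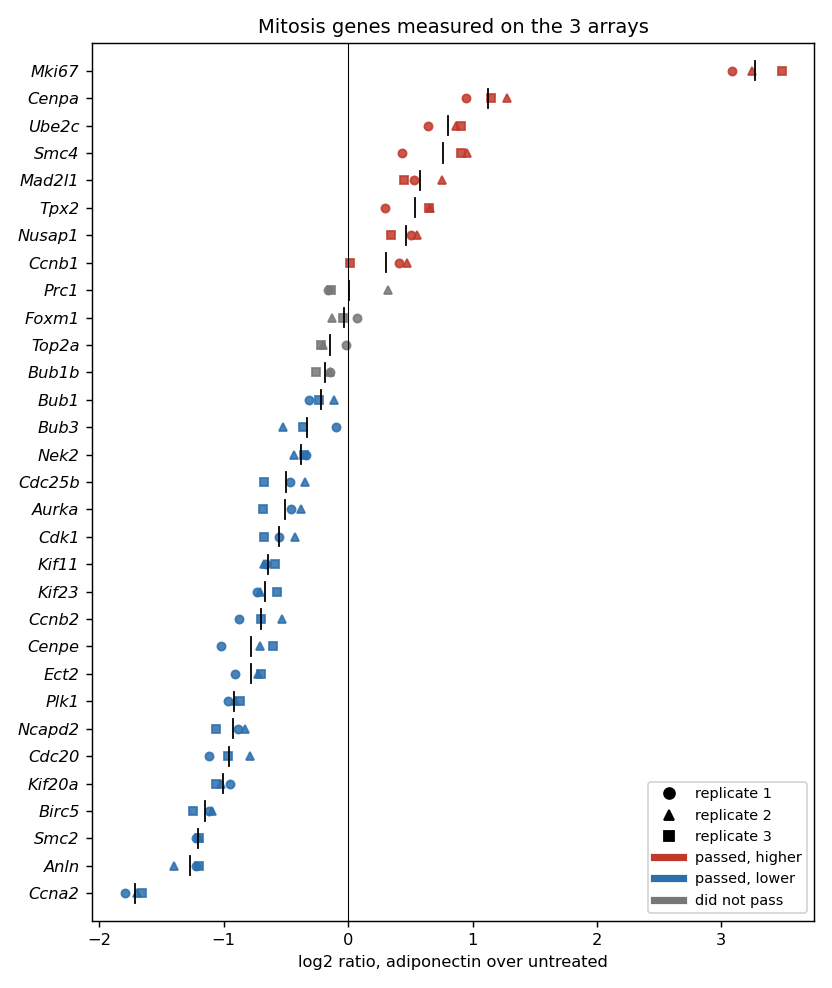
Log2 ratio of adiponectin-treated over untreated cells (x axis) for the 31 measured mitosis genes (y axis, ordered by mean), with 1 symbol per array, a bar at the mean and colour by the limma call at an adjusted p under 0.05. Mki67 lies between 3.08 and 3.48, and the next gene, Cenpa, between 0.95 and 1.28. The red genes other than Mki67 fall below 0 when arrays are median centred, but stay above the median of all tested genes, which is then -1.03.

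Over the 31 measured members, limma with Benjamini-Hochberg adjustment over all tested genes called 8 higher and 19 lower in treated cells, and 4 did not pass. Of all tested genes, 24.5% were called higher and 46.1% lower, 70.6% in either direction, so most genes of any kind passed, and the share of members called higher (25.8%) was close to that background, while the share called lower (61.3%) was above it. After centring on the tested genes, 8 members were higher and 17 lower, and over all genes the split was 4640 higher and 4835 lower. The median log2 change of the members was -0.50, against -0.17 over all tested genes. Nek2, Kif11 and Kif20a, among the 19, were well above background in untreated cells only, so they were measured through the group where they were high. With all 6 readings required to be well above background, 13 of 25 members were lower, against 5290 of 11394 genes. The medians were then closer together, at -0.22 for the members and -0.17 for all genes. At 2-fold or more, 2 members were higher, Mki67 and Cenpa, and 5 were lower, against 6.80% and 12.6% of all tested genes. The 3 treated and 3 untreated levels did not overlap for 29 of the 31 members, against 75.6% of all tested genes, and the exceptions were Foxm1 and Prc1. In RNA of whole cultures, fewer dividing cells and less RNA per dividing cell cannot be told apart.

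When arrays were median centred, without loess, limma called 0 genes after adjustment, while 5315 had an unadjusted p under 0.05. The median of all tested genes was then -1.03, and it differed between arrays, at -1.48 and -1.67 on replicates 1 and 3 but -0.06 on the dye-swapped replicate 2. Mki67 was at 2.09 in that setting (adjusted p = 0.0769 in limma), which is 3.11 above the median of all genes. The members described below as higher other than Mki67 (Ccnb1, Tpx2, Mad2l1, Ube2c, Nusap1, Cenpa and Smc4) were below 0 in that setting, yet each of them lay 0.41 to 1.02 above the median of all tested genes. Of the members called lower, Nek2, Bub1 and Kif11 also lay above that median, by 0.61, 0.35 and 0.13, and the others lay below it.

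**Figure D2:**
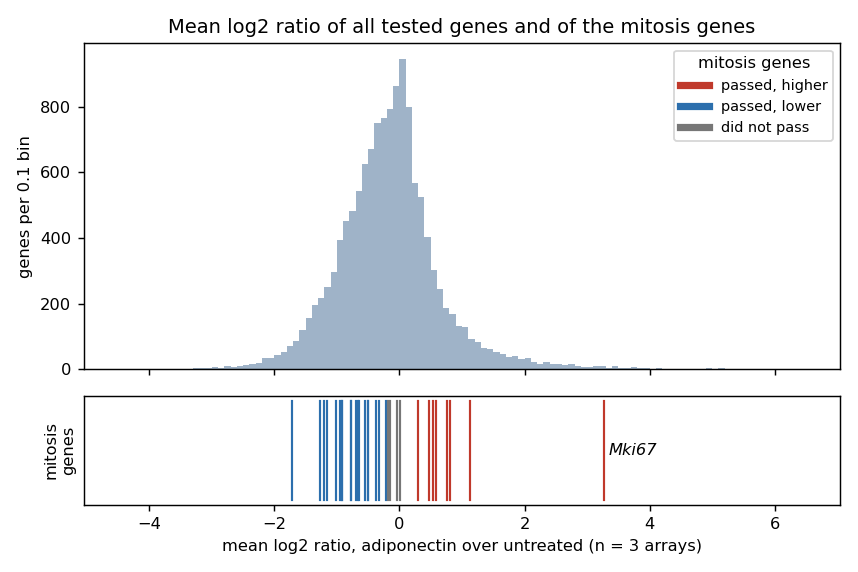
Number of tested genes per bin of mean log2 ratio of treated over untreated cells (upper panel), with each measured mitosis gene as a line on the same axis (lower panel, coloured by its limma call). The other mitosis genes lie between -1.71 and 1.13, within the bulk of all genes, and Mki67 lies at 3.27. Under median centring, the red lines other than Mki67 fall below 0 but stay above the median of all tested genes, which is then -1.03.

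The switch that starts mitosis was lower at most of its measured members. Ccna2, cyclin A2, which activates CDK kinases in S phase and early mitosis, had log2 intensities of 6.58, 6.36 and 6.78 in treated cells, against 8.37, 8.06 and 8.43 in untreated cells. Its mean log2 change was -1.71 ± 0.082 (limma adjusted p = 5.63e-07), the lowest value among the measured members. Treated cells were well above background at Ccna2 on only 1 of the 3 arrays, and its value was -4.17 by the scanner's own log ratio, which has no offset that pulls dim ratios towards 0.

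Cdk1 itself, the kinase of mitotic entry, had log2 intensities of 7.70, 7.61 and 7.56 in treated cells, against 8.25, 8.03 and 8.23 in untreated cells. The groups did not overlap, and the log2 change was -0.55 ± 0.087 (limma adjusted p = 0.000489). The 2 B-type cyclins went opposite ways. Ccnb2 fell, at -0.70 ± 0.093 (limma adjusted p = 0.000178), whereas Ccnb1 was higher at 0.30 ± 0.11 (limma adjusted p = 0.0314). The ratio of Ccnb1 was 0.41, 0.48 and 0.02 on the 3 arrays, so that replicate 3 was close to no change. Leaving out replicate 1 (adjusted p = 0.162 in limma) or replicate 2 (0.127) ended the call, but its dimmer probes gave higher values, 0.76 and 0.53. Cdc25b, a phosphatase that activates CDK1, fell by 0.50 ± 0.092 on the log2 scale. Foxm1, the transcription factor that drives many of these genes, was at -0.03 ± 0.084 (limma adjusted p = 0.751), with overlapping groups.

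The measured mitotic kinases and their partners were lower with 1 exception. Plk1, which acts at centrosomes, kinetochores and in cytokinesis, had log2 intensities of 7.54, 7.46 and 7.63 in treated cells, against 8.50, 8.37 and 8.50 in untreated cells, a log2 change of -0.91 ± 0.080 (limma adjusted p = 1.51e-05). Birc5, survivin, the subunit that brings Aurora B to centromeres, had log2 intensities of 8.62, 8.50 and 8.57 in treated cells, against 9.74, 9.59 and 9.82 in untreated cells. Its log2 change was -1.15 ± 0.083 (limma adjusted p = 4.78e-06), and its dimmer probes gave -0.61 and -0.39. Aurka, the spindle pole kinase Aurora A, fell by 0.51 ± 0.091 on the log2 scale. Nek2, a centrosome kinase, was not well above background in treated cells on any array. It was at least 1.27-fold lower in the reported fit (limma adjusted p = 0.00284), and its log2 change was -0.21 after centring on tested genes. Tpx2, which activates Aurora A on the spindle, was the exception at 0.54 ± 0.099 (limma adjusted p = 0.00127), although its dimmer probe gave -0.05.

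The spindle checkpoint delays anaphase until all chromosomes are attached, and its genes moved both ways. Cdc20, the activator of the anaphase-promoting complex that the checkpoint holds back, had log2 intensities of 7.09, 7.08 and 7.48 in treated cells, against 8.21, 7.86 and 8.44 in untreated cells. The groups did not overlap, and the log2 change was -0.96 ± 0.092 (limma adjusted p = 2.65e-05). Ube2c, the ubiquitin-conjugating enzyme of the same complex, had log2 intensities of 8.85, 9.34 and 9.34 in treated cells, against 8.21, 8.47 and 8.43 in untreated cells. It was higher by 0.81 ± 0.089 (limma adjusted p = 5.89e-05), although its dimmer probe gave 0.17.

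Mad2l1, the checkpoint protein MAD2, was higher by 0.58 ± 0.091 (limma adjusted p = 0.000489) with its brightest probe, while its other probes gave 0.08 and -0.19, so its direction depended on the probe. Bub1, a checkpoint kinase, was at -0.22 ± 0.084 (limma adjusted p = 0.0424). Leaving out replicate 1 (adjusted p = 0.247 in limma) or replicate 3 (0.136) ended that call. Bub3, which brings BUB1 and BUBR1 to kinetochores, was at -0.33 ± 0.10 (limma adjusted p = 0.0169), or 0.0704 without replicate 2 and 0.0710 without replicate 3. Both calls also ended after centring on the tested genes (adjusted p = 0.604 for Bub1 and 0.183 for Bub3 in limma), and that of Bub3 also ended with a background offset of 0 (0.128) and by the scanner's own log ratio (0.0535). Bub1b, which encodes BUBR1, was at -0.18 ± 0.081 and did not pass (limma adjusted p = 0.0739).

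Genes of motors, the central spindle and cytokinesis were mostly lower. Anln, anillin, a scaffold of the contractile ring, had log2 intensities of 6.76, 6.48 and 6.71 in treated cells, against 7.98, 7.87 and 7.91 in untreated cells. Its log2 change was -1.27 ± 0.085 (limma adjusted p = 3.21e-06). Kif20a, a kinesin of the central spindle, was not well above background in treated cells on any array and was 2.01-fold lower in the reported fit (limma adjusted p = 8.81e-06). Kif11, the kinesin that separates the spindle poles, was likewise dim in treated cells and 1.56-fold lower in that fit (limma adjusted p = 0.000123). After centring on tested genes Kif20a was at -0.84, against -1.01 in the reported fit, and Kif11 at -0.47, against -0.64. By the scanner's own log ratio these genes were at -2.82 (Anln), -4.10 (Kif20a) and -3.48 (Kif11). With a background offset of 0 they were at -2.29, -2.68 and -1.76, and in the authors' deposited table at -1.71, -1.54 and -1.01. The size of these falls therefore depended on the processing.

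Kif23, a kinesin of the midbody, was at -0.67 ± 0.083, and Ect2, the exchange factor that activates RhoA at the cleavage furrow, at -0.78 ± 0.086. By the scanner's own log ratio Kif23 was at -1.02 and Ect2, well above background on 1 of the 3 treated arrays, at -2.39. Ect2 was at -1.73 with a background offset of 0 and at -1.13 in the authors' deposited table. Nusap1, a microtubule-bundling protein, went the other way, with log2 intensities of 7.61, 7.84 and 7.58 in treated cells, against 7.11, 7.29 and 7.24 in untreated cells, and was higher by 0.47 ± 0.085 (limma adjusted p = 0.00117). Prc1, which bundles the central spindle, was at -0.16 and -0.14 on replicates 1 and 3 but 0.32 on replicate 2, and did not pass (limma adjusted p = 0.960).

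At the centromere, Cenpa and Cenpe differed in direction. Cenpa, the histone H3 variant that marks centromeres, had log2 intensities of 9.94, 10.24 and 10.14 in treated cells, against 8.99, 8.96 and 8.99 in untreated cells. It was higher by 1.13 ± 0.092 (limma adjusted p = 9.90e-06), the next largest rise after Mki67. Cenpe, a kinesin that moves chromosomes to the spindle equator, had log2 intensities of 7.92, 7.89 and 8.25 in treated cells, against 8.94, 8.60 and 8.86 in untreated cells. It was lower, at -0.78 ± 0.10 (limma adjusted p = 0.000148).

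Genes that condense chromosomes were split as well, including the core pair of condensin. Smc2 had log2 intensities of 7.38, 7.17 and 7.29 in treated cells, against 8.60, 8.36 and 8.50 in untreated cells, a log2 change of -1.21 ± 0.079 (limma adjusted p = 2.89e-06). Smc4, its partner in the same ring, had log2 intensities of 10.77, 10.97 and 11.06 in treated cells, against 10.33, 10.02 and 10.15 in untreated cells. It was higher by 0.77 ± 0.11 (limma adjusted p = 0.000346), with 0.44 on replicate 1 against 0.95 and 0.90 on the other arrays. Ncapd2, a condensin I subunit, fell by 0.92 ± 0.086 on the log2 scale. Top2a, the DNA topoisomerase that untangles sister chromatids and, like Mki67, a common marker of dividing cells, had log2 intensities of 7.46, 7.41 and 7.46 in treated cells, against 7.47, 7.62 and 7.68 in untreated cells. Its log2 change of -0.15 ± 0.085 did not pass (limma adjusted p = 0.159).

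**Figure D3:**
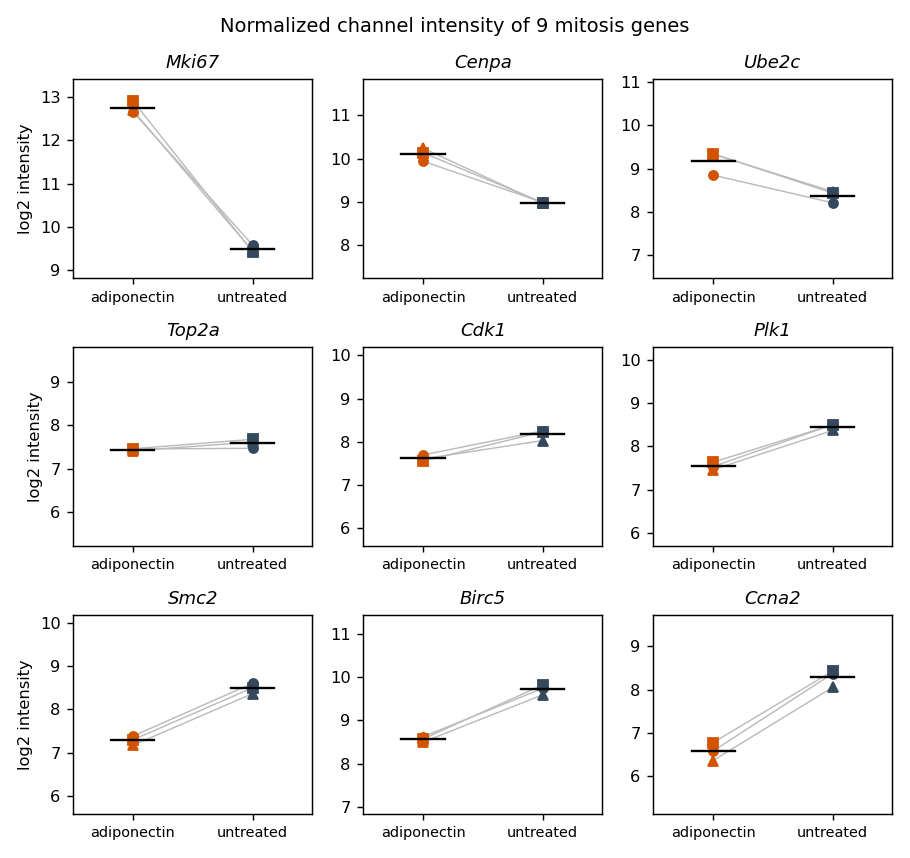
Normalized log2 intensity of 9 mitosis genes in adiponectin-treated (left) and untreated (right) cells, with 1 symbol per sample, a grey line joining the samples of 1 array and a bar at each group's mean; every panel spans the same number of log2 units. Mki67 is at 12.66 to 12.91 in treated cells and 9.43 to 9.58 in untreated cells, while Cdk1, Plk1, Smc2, Birc5 and Ccna2 are lower in treated cells. The log2 changes of Cenpa and Ube2c, higher here, are below 0 under median centring, but 1.02 and 0.81 above the median of all tested genes in that setting.

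Related genes outside the member list were read from 7 lists, of which 127 genes were measured. Of these, 25 were called higher and 69 lower in treated cells, and 33 did not pass, with a median log2 change of -0.25. Higher calls made up 19.7% of them, against 24.5% of all tested genes, and lower calls 54.3%, against 46.1%. Some of the genes called lower were read by probes well above background in untreated cells only, so they were measured through the group where they were high. The lower counts of the kinetochore, spindle, mitotic entry and Ki-67 partner lists below include such genes. Whether the shares hold with all 6 readings required was not tested for these lists. With median centring the median of each of the 7 lists was below 0, as was that of all tested genes (-1.03). Set against the latter, the list medians lay between -0.46 and 0.77.

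Among 13 measured regulators of mitotic entry, 5 (38.5%) were higher and 3 (23.1%) lower, against 24.5% and 46.1% of all tested genes. Their median was 0.03. Under median centring it was -0.25, which lay 0.77 above the median of all tested genes in that setting. Ccnf, cyclin F, the substrate receptor of a ubiquitin ligase that acts late in the cell cycle, rose about as much as Mki67. Its log2 intensity was 11.14, 11.34 and 11.19 in treated cells, against 8.07, 8.01 and 8.01 in untreated cells, a log2 change of 3.19 ± 0.088 (limma adjusted p = 4.60e-08). Cks2, a small CDK-binding protein, was higher by 2.13 ± 0.16, with 1.64, 2.64 and 2.11 on the 3 arrays, and Wee1, the kinase that inhibits CDK1, by 1.23 ± 0.096. These 3 genes stayed above 0 with median centring (2.05 for Ccnf, 1.34 for Cks2 and 0.27 for Wee1).

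Of 19 measured genes of the MuvB complex, MYB and the E2F factors, 6 (31.6%) were higher and 10 (52.6%) lower, with a median of -0.27. Over all tested genes 24.5% were higher and 46.1% lower. After centring on tested genes, 6 of the list were higher and 5 lower, against 4640 and 4835 of 13181 genes. E2f5, an E2F factor of the repressive type, was higher by 2.02 ± 0.083, and the MuvB subunit genes Lin54 and Lin9 by 1.74 ± 0.089 and 1.52 ± 0.092. LIN54 is the subunit that contacts the CHR element. All 3 were above 0 with median centring too.

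The 13 measured partners of Ki-67 and proteins of the chromosome periphery and nucleolus did not rise with it. Limma called 0 higher and 10 (76.9%) lower, against 24.5% and 46.1% of all tested genes, with a median of -0.44. At an unadjusted p under 0.05 in limma, 0 were higher and 10 lower. After centring on tested genes, 1 was called higher and 8 lower after adjustment, against 4640 and 4835 of 13181 genes. Pes1, a nucleolar protein of ribosome assembly, had log2 intensities of 7.85, 7.66 and 7.61 in treated cells, against 10.05, 9.69 and 10.15 in untreated cells. Its log2 change was -2.25 ± 0.11 (limma adjusted p = 5.95e-07), or -0.51 with its dimmer probe. Its partner gene Wdr12, well above background on 2 of the 3 treated arrays, was at -0.99 ± 0.084, or -2.93 by the scanner's own log ratio. Ppp1cc, the phosphatase subunit that Ki-67 binds, was at -1.11 ± 0.095, with -0.27 for its dimmest probe.

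The shares of the other lists are read against 24.5% higher and 46.1% lower calls over all tested genes. The counts after centring have another background, 4640 higher and 4835 lower calls over 13181 genes. Of 30 measured kinetochore and centromere genes, 6 were higher and 15 lower (9 and 11 after centring on tested genes), with a median of -0.18, close to the -0.17 of all tested genes. Zwint, a kinetochore linker, was higher by 1.55 ± 0.083 and Cenpl, of the inner kinetochore, by 1.09 ± 0.080. With median centring Cenpl was at -0.01, which lay 1.01 above the median of all tested genes in that setting. Zwilch, of the complex that recruits dynein, was read by a probe that was not well above background in treated cells on any array. Its log2 change was -0.88 ± 0.084 (limma adjusted p = 2.43e-05), or -0.79 with its dimmer probe and -2.48 by the scanner's own log ratio. Of 20 measured spindle and cytokinesis genes, 1 was higher and 13 lower (2 and 9 after centring on tested genes), led by Racgap1 (-0.90 ± 0.088), Cdca3 (-0.84 ± 0.11) and Kif20b (-0.83 ± 0.088, or -1.57 by the scanner's own log ratio). Of 18 measured genes of the anaphase-promoting complex and separase, 5 (27.8%) were higher and 8 (44.4%) lower (6 and 6 after centring on tested genes), shares close to those of all tested genes. The members that changed most were Anapc5 (-1.46 ± 0.099), the inhibitor gene Fbxo5 (-1.42 ± 0.084) and Espl1, separase, which cuts cohesin at anaphase (-1.29 ± 0.080). By the scanner's own log ratio Fbxo5 was at -2.33 and Espl1, well above background on 2 of the 3 treated arrays, at -2.84. Of 14 measured condensin and cohesin genes, 2 were higher and 10 lower (3 and 8 after centring on tested genes), among them Smc3 (-1.27 ± 0.079) and Stag2 (-1.11 ± 0.093) of the cohesin ring and Cdca5, sororin, which stabilises it (-1.26 ± 0.081, or -2.10 by the scanner's own log ratio).

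**Figure D4:**
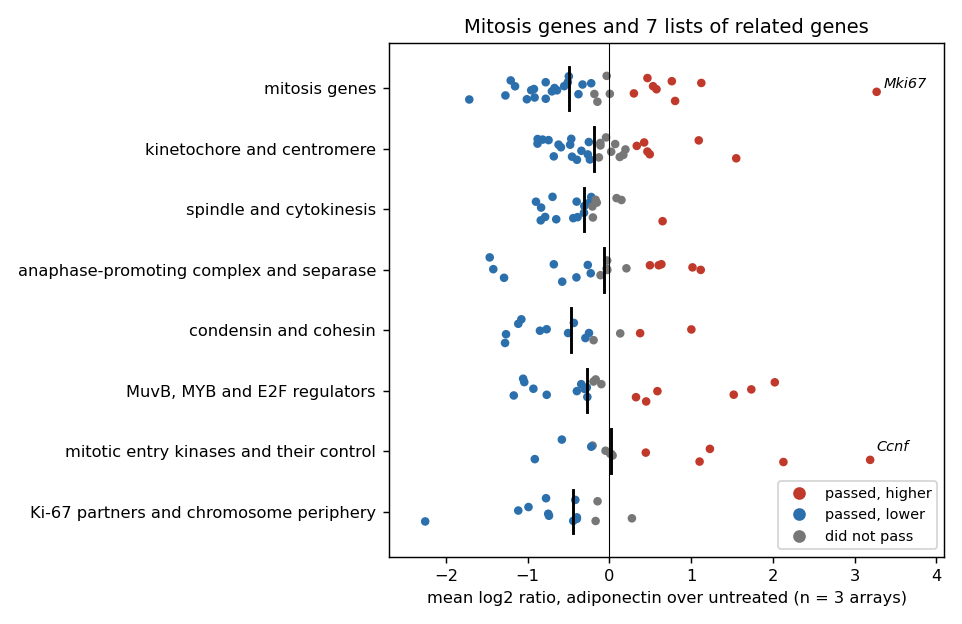
Mean log2 ratio of treated over untreated cells (x axis) of each measured gene in the mitosis list and in 7 lists of related genes (y axis), coloured by the limma call, with a bar at each list's median. Mki67 at 3.27 and Ccnf at 3.19 stand apart from the other genes shown, and the list medians lie between -0.50 and 0.03. Under median centring these medians are all below 0, as is that of all tested genes (-1.03), and relative to it they lie between -0.46 and 0.77.

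The labelled cell type was checked by its markers. All 9 macrophage markers on the array were well above background in all treated and all untreated samples, and the log2 of their summed intensity was 17.3 to 17.6 in treated cells, against 18.3 to 18.4 in untreated cells. This sum held changes in both directions, with 2 markers (22.2%) called higher and 7 (77.8%) lower, against 24.5% and 46.1% of all tested genes. Their log2 changes ran from -3.90 to 0.97. Of 6 blood progenitor markers, 2 were well above background in all treated samples and 3 in all untreated samples, with summed levels of 9.10 to 9.23 in treated cells, against 9.34 to 9.50 in untreated cells. Gata2 was not well above background in any sample. Of 7 markers of neutrophils and their precursors, 6 were above background in all treated and 7 in all untreated samples, with sums of 11.7 to 11.9 in treated cells, against 11.5 to 11.8 in untreated cells. These sums held opposite changes, with 2 markers called higher, Camp (1.27) and Elane (0.73), and 4 lower, among them Ltf (-2.08), Mpo (-1.32) and Ngp (-0.71), all log2 changes. Of 6 T cell markers, 3 were above background in all samples of both groups, Cd3d, Cd3g and Cd2 in none, and the summed level was 10.5 to 10.6 in treated cells, against 9.87 to 9.90 in untreated cells. Among B cell markers 1 of 6 was above background in all samples and Ms4a1 and Ebf1, among others, in none, with sums of 9.48 to 9.56 in treated cells, against 10.58 to 10.66 in untreated cells. Among fibroblast markers 3 of 7 were above background in all samples and Lum and Pdgfra in none, with sums of 9.47 to 9.60 against 9.19 to 9.30. Sums for the erythroid list were 8.37 to 8.41 in treated cells, against 8.36 to 8.46 in untreated cells, with Alas2 and Klf1, among others, above background in none. For the NK list they were 8.75 to 8.87 against 8.77 to 8.80, with Ncr1, Klrb1c and Eomes in none, for the mast cell and basophil list 9.92 to 10.4 against 9.36 to 9.58, with 5 of 6 in none, and for the dendritic list 15.4 to 15.6 against 15.1 to 15.3, with Xcr1 and Clec9a in none. The dendritic sum was nearly all Siglech (15.41 to 15.57 in treated cells, against 15.09 to 15.33 in untreated cells), while Zbtb46 was higher by 1.51 ± 0.087 on the log2 scale (limma adjusted p = 1.40e-06). The part of other cells in the values of the mitosis genes was not tested. Treated channels had 43.9% to 47.5% of probes well above background and untreated channels 53.4% to 54.3%.

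The log2 change of Mki67 was above 0 under each of 15 alternative settings, and it lost its call in 1, median centring. It ranged from 2.09 under median centring to 3.48 by the scanner's own log ratio, and the median of the measured members from -1.16 to -0.22. With a dye term, Mki67 had a dye coefficient of -0.02, and none of the 31 members had one that passed (limma adjusted p of at least 0.296). That term sets replicate 2 alone against the other arrays, and only 44 of 13181 genes passed it. It therefore cannot show that a dye effect is absent. The log2 values of some further members were over 1.5 times as large by the scanner's own log ratio, at -2.48 for Nek2, -1.49 for Cdc20, 0.92 for Nusap1, 0.55 for Ccnb1, -0.35 for Bub1 and -1.86 for Smc2. Nek2, dim in treated cells, was at -1.37 with a background offset of 0 and at -0.65 in the authors' deposited table.

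**Figure D5:**
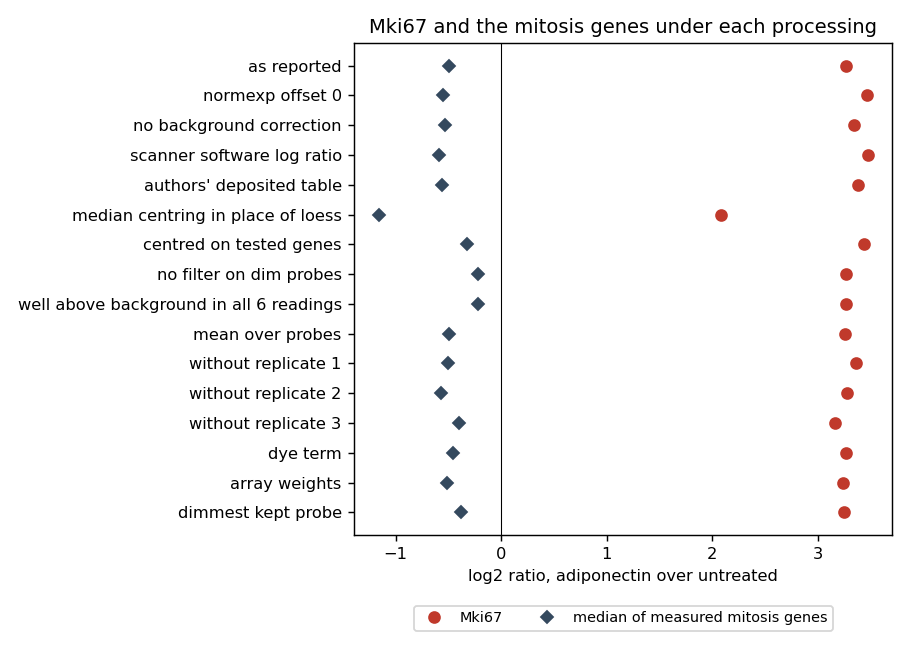
Log2 change of Mki67 (circles) and median log2 change of the measured mitosis genes (diamonds), treated over untreated, in the reported fit and under 15 alternative settings (y axis). Mki67 lies between 2.09 and 3.48 and the median between -1.16 and -0.22, both lowest under median centring.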

How the data were processed

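RNA was measured on 3 Agilent 2-colour arrays, all on 1 slide and in 1 scan per the file headers, so that no slide or scan date could be used as a block. Per the file headers, the authors quantified the arrays with Agilent Feature Extraction 10.7.3.1 and the design was placed on mouse build mm9. The deposited intensity columns used here hold the median brightness of each spot and its local background, without normalization. The deposited processed signals are background-subtracted and dye-normalized intensities, and the deposited log10 ratio is Cy5 over Cy3, per the file headers. A deposited table of the authors holds log2 values whose processing is not stated in those sources. It correlated with treated over untreated ratios at r = 0.994, 0.990 and 0.992 across spots, with medians of -0.0024, -0.0097 and -0.0058, which sets its direction and centring, and its background handling stays unknown.

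Median signals were background corrected with normexp (offset 50) and loess-normalized within arrays with control spots weighted 0 (limma 3.58.1, R 4.3.3). Outlier spots (299 to 323 per array) were left out, no spot was saturated, and each ratio was turned to treated over untreated by the dye labels. Levels are channel intensities after a further Aquantile step, which leaves ratios as they are. Each gene was its brightest probe well above background in at least 3 of 6 channel readings with a value on all 3 arrays, named through RefSeq (27235 of 55681 probes). Ratios were tested against 0 with lmFit and eBayes, adjusted with Benjamini-Hochberg over 13181 genes at a threshold of 0.05, and the code was tested on simulated data. For a gene not well above background in any sample of 1 group, levels of that group below the dimmest signal well above background were raised to it. This lowered the fold of Nek2 but left those of Kif11 and Kif20a as measured. Such a fold holds for the reported processing only and is not a bound over other settings. The number of arrays limits the precision, p-values measure the spread between these samples, and 2 arrays against 1 in dye orientation do not cancel a dye effect.

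All measured members may be named, and from each related list the 3 genes with the largest called change of the same sign on all arrays. The members and lists were chosen with earlier results of these data known.
Some marker genes are not reported here by name.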

Additional observations from a re-analysis of the deposited data

How the results depend on the processing

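Leaving out 1 array at a time gave 2762 to 3149 genes called higher and 5368 to 6142 lower, 7 to 8 members higher and 17 to 18 lower, a median of the members of -0.57 to -0.40, a log2 change of Mki67 of 3.16 to 3.37 and a gap between Mki67 and the median of the other members of 3.61 to 3.87. Under median centring the counts of genes and of members called were 0 in both directions in limma (5315 genes, and 1 member higher and 17 lower, had an unadjusted p under 0.05), Mki67 was at 2.09, the median of the members at -1.16 and the gap at 3.25. In that setting Ccnb1 (-0.51), Tpx2 (-0.61), Mad2l1 (-0.52), Ube2c (-0.22), Nusap1 (-0.14), Cenpa (-0.0038) and Smc4 (-0.42) turned below 0. Each of them stayed above the median of all tested genes, which was then -1.03. The median of the members was also -0.59 in the scanner software's log ratio, where the gap was 4.08, -0.32 after centring on tested genes, and -0.22 both without a filter on dim probes and with a filter on all 6 readings, which changed how many members entered (37 and 25). With the dimmest kept probe of each gene, an alternative chosen after seeing the data, 5 members were higher, the median was -0.39, and Tpx2 (-0.048) and Mad2l1 (-0.19) turned below 0. Of 414 values of the other 30 members outside median centring, 12 lost the call and 10 turned sign, 2 of members that were called (Tpx2 and Mad2l1) and 8 of members that did not pass (5 of Foxm1, 2 of Prc1 and 1 of Top2a). Array weights, a dye term, offset 0, no background correction, the authors' table and the mean over probes kept the counts within 1.5 times. No block for slide or scan date was run, since all arrays share 1 slide and scan. The reported fit is itself paired, since each ratio sets 1 treated against 1 untreated sample of the same array, so no further replicate block was fitted. Spots near background limit the size of the falls of Ccna2, Kif11, Kif20a, Nek2, Ect2 and Anln, where the offset shrinks the ratio.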
